A study of Mus musculus with 6 samples.

Results

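A set of 9 genes of neuropeptide and vasoactive peptide signaling was followed in fetal mouse prostate mesenchyme treated with estradiol (E2). The set comprised Npy1r, Penk, Ednra, Ednrb, Edn1, Agtr1a, Adm, Calcrl and Npr3, and its probe sets were found by the gene symbol in the array annotation. Of the 9 genes, 7 had a listed probe set, with 12 probe sets in all, among 22626 non-control probe sets and 12393 genes with a single symbol on the array. The expression of Ednra and Agtr1a, the receptors ETA and AT1a, was not analysed here. The genes were chosen with their difference between E2 and control on these same arrays in view, so the members' values are given as a description, with no p. Where the fit across all probe sets called one of them, that is stated as how the fit fell and is no independent evidence.

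Urogenital sinus (UGS) mesenchyme, the embryonic connective tissue that directs budding of the prostate, was obtained from male CD-1 mouse fetuses at gestation day 17, separated from the epithelium and used as first passage cells. One group received 100 nM E2 for 4 days and the control group received the ethanol vehicle, each with 3 replicate samples on Affymetrix mouse expression arrays. Both groups spent the preceding 3 days without estrogen, and both were kept throughout in 690 pM dihydrotestosterone (DHT), so no comparison here is free of androgen. Nothing in the sources used here says that the samples came from separate cell preparations, so errors and p-values cover the variation among these samples, and that variation may be technical.

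Most peptides of this kind are cut from longer precursors, secreted, and bound by receptors of the G protein-coupled class on the same or neighboring cells, and proteases at the cell surface then degrade them. Neuropeptide Y and the enkephalins act in nerves and also outside them, whereas endothelin, angiotensin, adrenomedullin and the natriuretic peptides are best known for setting vessel tone. In the adult prostate, stroma and smooth muscle respond to several of them, including endothelin.

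The stretches of DNA upstream of Npy1r and Npr3 are shown because these are the members with the larger differences for which a promoter sequence was at hand. Both come from RefSeq (mouse build GRCm38.p6) and are written 5′ to 3′ on the strand of the gene, ending at the base before the annotated start. The Npy1r stretch covers 250 bases on the plus strand, chr8:66697172-66697421, and its capitals mark a match to the AP-1 site, the motif bound by Fos and Jun proteins. The Npr3 stretch covers 166 bases on the minus strand, chr15:11907372-11907537, and has no capitals because none of the motifs searched was found in it.
Npy1r: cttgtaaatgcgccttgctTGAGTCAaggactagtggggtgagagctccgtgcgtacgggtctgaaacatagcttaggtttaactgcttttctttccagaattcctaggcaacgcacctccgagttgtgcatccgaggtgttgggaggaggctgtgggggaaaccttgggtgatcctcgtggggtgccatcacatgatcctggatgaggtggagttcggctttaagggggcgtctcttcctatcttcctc
Npr3: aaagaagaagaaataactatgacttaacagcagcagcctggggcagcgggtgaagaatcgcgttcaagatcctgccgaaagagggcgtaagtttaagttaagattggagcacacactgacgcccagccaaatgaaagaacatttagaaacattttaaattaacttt

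The 7 members with a RefSeq promoter entry, all but Penk and Agtr1a, were searched over the 250 bases before the start, on both strands, beside all 32851 windows of that length in the table. The AP-1 motif, TGANTCA, was matched in 1 member, Npy1r, at bases -231 to -225 counted from the start, and in 6.75% of all windows. The GC box, GGGCGG, was matched in Adm at -42 to -37 on the reverse strand and in Calcrl at -83 to -78, and in 32.7% of all windows. The estrogen response element palindrome, GGTCANNNTGACC, was matched in 0 of the 7 members and in 0.0639% of all windows. Its hexamer AGGTCA, which overlaps the palindrome, was likewise found in 0 members and in 14% of all windows. The cAMP response element, TGACGTCA, and the TATA box, TATAAA, were also in 0 members, against 1.55% and 12.4% of all windows. Only these exact letters were counted, and not near matches such as TATAAG, which the Adm window holds. Upstream of the Npr3 stretch shown, a run of 84 bases of repeated AAG triplets filled positions -250 to -167, and the 250 bases had a GC content of 38.8%, against 53.6% for Npy1r. These are matches of letters only, and no binding was measured.

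The signal of a probe set, the fluorescence of the short probes that read a transcript, is given in units after each array was scaled to a common median. The deposited medians were 18.1, 13.7 and 21.8 units on the E2 arrays and 17.1, 19.9 and 14.0 units on the control arrays. A probe set was tested where its deposited mean was at least 10 units in either group, which kept 14223 probe sets and left out 8403 (37.1%). E2 was compared with control by limma on log2 values, two-sided, with Benjamini-Hochberg adjustment over all probe sets tested. The median log2 difference over all of them was -0.04, and the median standard error (SE) of a difference was 0.21. E2 replicate 2 and control replicate 3 stood apart in an 18S ribosomal RNA control probe set, with 288 units and 281 units as deposited, whereas the other arrays ran from 22.8 to 44.7 units. With 3 arrays per group, the number of arrays sets the precision.

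Of the 12 probe sets of these genes, 7 passed this filter, for Npy1r, Penk, Adm, Calcrl and Npr3, and 5 did not. All 7 had a mean above 10 units in both groups, so none passed through one group alone. All 7 differences were positive, with a median log2 difference of 0.36. By the adjusted p, at a threshold of 0.05, 2 of the 7 were called higher in E2-treated cells, Npy1r and Penk, and 0 lower, where 0.492% of all probe sets tested were called higher and 0.253% lower. At the paper's thresholds of 1.5-fold and an unadjusted p of 0.05, 3 were past in the higher direction and 0 in the lower, where the shares of all probe sets were 2.06% and 1.88%. Only the thresholds are the paper's, since the p here came from limma on median-scaled values and the paper filtered in other software. The E2 arrays lay all above the control arrays for 3 and all below for 0, where the shares were 5.72% and 8.49%. The genes were picked on this contrast, so nothing is read from these counts.

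**Figure D1:**
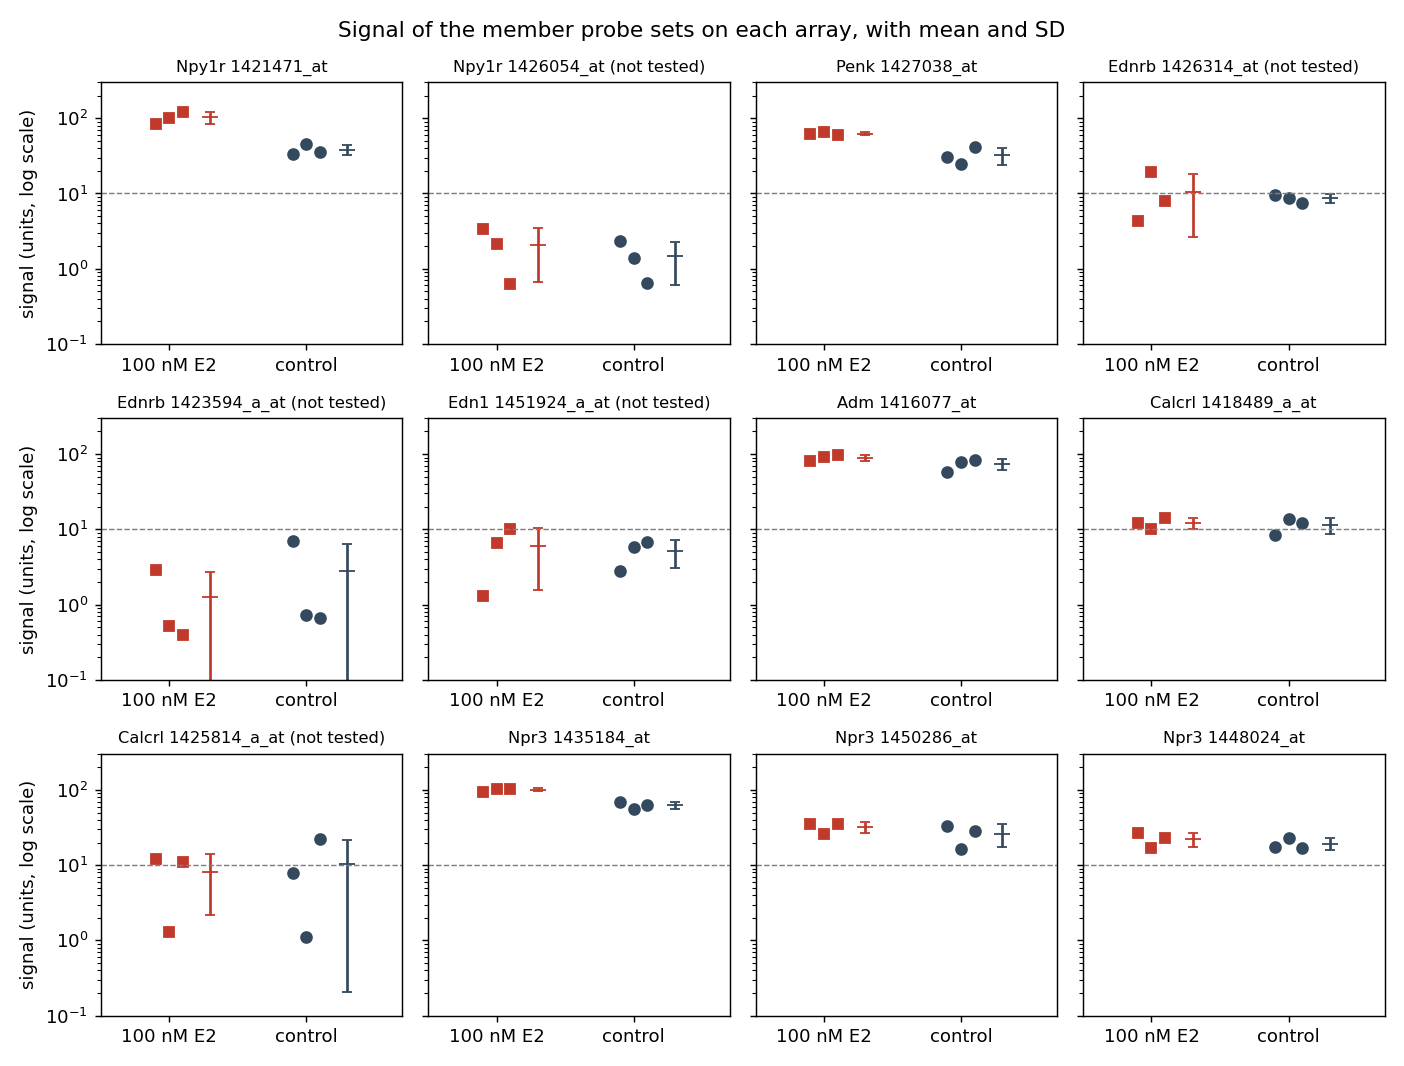
Signal in units (log axis) of the 12 member probe sets, 1 panel each, on the 3 arrays of 100 nM E2 (squares) and the 3 control arrays (circles), with the mean and SD beside each group. The dashed line is at 10 units, SD bars that reach 0 run off the axis, and the groups do not overlap for Npy1r 1421471_at, Penk and Npr3 1435184_at.

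Npy1r encodes the Y1 receptor for neuropeptide Y and peptide YY, which couples to inhibitory G proteins. Its probe set 1421471_at gave 83.5, 101 and 122 units in cells treated with 100 nM E2, against 33.9, 45.3 and 35.4 units in control cells. Every E2 array lay above every control array. In units, the gap between the groups was wider than the range within the control group, though not wider than that within the E2 group. On log2 values, the scale of the fit, it was wider than the range within either group. The means were 102 ± 19.3 units in E2-treated cells and 38.2 ± 6.20 units in control cells (SD, n = 3 each), a log2 difference of 1.42 (SE 0.19). The second Npy1r probe set, 1426054_at, gave 3.39, 2.13 and 0.633 units with E2 and 2.33, 1.40 and 0.645 units in control. It was near background on all arrays, the groups overlapped, and it bears neither way on the first.

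The ligands of this receptor were measured on the same arrays. Npy, neuropeptide Y itself, gave 15.9 ± 4.74 units in E2-treated cells and 18.8 ± 2.25 units in control cells (SD, n = 3 each), with overlapping groups and an adjusted p of 0.886 from limma. Pyy, peptide YY, gave 0.686, 6.32 and 4.97 units with E2 and 14.0, 16.1 and 0.981 units in control, a wide spread in control cells, with an adjusted p of 0.899 from limma. Neither ligand passed the test in either direction.

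Penk encodes proenkephalin, the precursor that is cut into Met- and Leu-enkephalin, the ligands of the delta and mu opioid receptors. Its probe set 1427038_at gave 62.6, 65.4 and 59.7 units in E2-treated cells, against 30.3, 24.9 and 41.4 units in control cells. The E2 arrays were close together and all above control, and control replicate 3 was the highest of the control arrays. The means were 62.6 ± 2.84 units with E2 and 32.2 ± 8.43 units in control (SD, n = 3 each), a log2 difference of 0.99 (SE 0.21). The call of Penk was held in 5 of the 15 alternative fits that gave it a value, whereas that of Npy1r was held in 15 of 16. Penk was not called without E2 replicate 1, 2 or 3 (log2 differences 0.99, 0.96 and 1.02) or without control replicate 1 or 2 (0.96 and 0.82), and it was called without control replicate 3 (1.19).

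The opioid receptors were at the lower end of the signal range. Oprd1, the delta receptor, gave 4.66, 3.58 and 5.52 units with E2 and 7.22, 6.18 and 6.24 units in control, all E2 arrays below control but under the floor, and Oprm1, the mu receptor, was also under it in both groups. Oprk1, the kappa receptor, which prefers dynorphins, averaged 8.79 ± 3.60 units with E2 and 10.3 ± 5.80 units in control (SD, n = 3 each), with overlapping groups. Of the enzymes that cut enkephalin precursors, Pcsk1 was under the floor, at 2.82 ± 2.89 units with E2 and 2.51 ± 1.66 units in control (SD, n = 3 each). Cpe, which trims peptide precursors, was well above the floor and is described below. Mme, or neprilysin, which degrades enkephalins and natriuretic peptides, gave 8.13 ± 2.51 and 10.7 ± 2.36 units in E2-treated and control cells, with an adjusted p of 0.899 from limma.

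Npr3 encodes the natriuretic peptide receptor C, which takes up natriuretic peptides and removes them, and which lacks the guanylyl cyclase of its relatives. It was read by 3 probe sets, whose differences varied. The brightest, 1435184_at, gave 94.5, 104 and 104 units in E2-treated cells, against 69.1, 56.1 and 62.9 units in control cells, with no overlap. The means were 101 ± 5.24 units with E2 and 62.7 ± 6.47 units in control (SD, n = 3 each), a log2 difference of 0.69 (SE 0.15). Although past 1.5-fold, this probe set was not called at the adjusted threshold, and it was called in 1 of 16 alternative fits, the one with array weights.

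The other Npr3 probe sets were dimmer and their groups overlapped. 1450286_at gave 35.4, 26.3 and 35.8 units with E2 and 33.5, 16.3 and 28.7 units in control, a log2 difference of 0.36 (SE 0.28). 1448024_at gave 26.7, 17.0 and 22.9 units with E2 and 17.7, 23.2 and 17.0 units in control, a difference of 0.19 (SE 0.28). All 3 differences were positive, but the groups were separate only in the first. The annotation assigns all 3 to Npr3 and does not say which transcript ends they read.

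Npr2, the guanylyl cyclase receptor for C-type natriuretic peptide, gave 92.4, 81.0 and 81.6 units with E2 and 80.6, 80.7 and 71.4 units in control. Its E2 arrays lay just above the control arrays, by a log2 difference of 0.13 (SE 0.15), and it did not pass (adjusted p = 0.889 from limma). Nppc, the ligand of Npr2, averaged 15.5 ± 1.73 units with E2 and 11.9 ± 6.35 units in control (SD, n = 3 each), with overlapping groups. Npr1 and Nppa, the receptor and the peptide of the atrial branch, were both under the floor. Nppa gave 4.15, 0.575 and 6.65 units with E2 and 6.68, 10.2 and 12.8 units in control, with every E2 array below control. Another natriuretic peptide, Nppb, averaged 10.2 ± 1.91 units with E2 and 8.40 ± 2.60 units in control (SD, n = 3 each). Its groups overlapped, and it did not pass (adjusted p = 0.930 from limma).

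**Figure D2:**
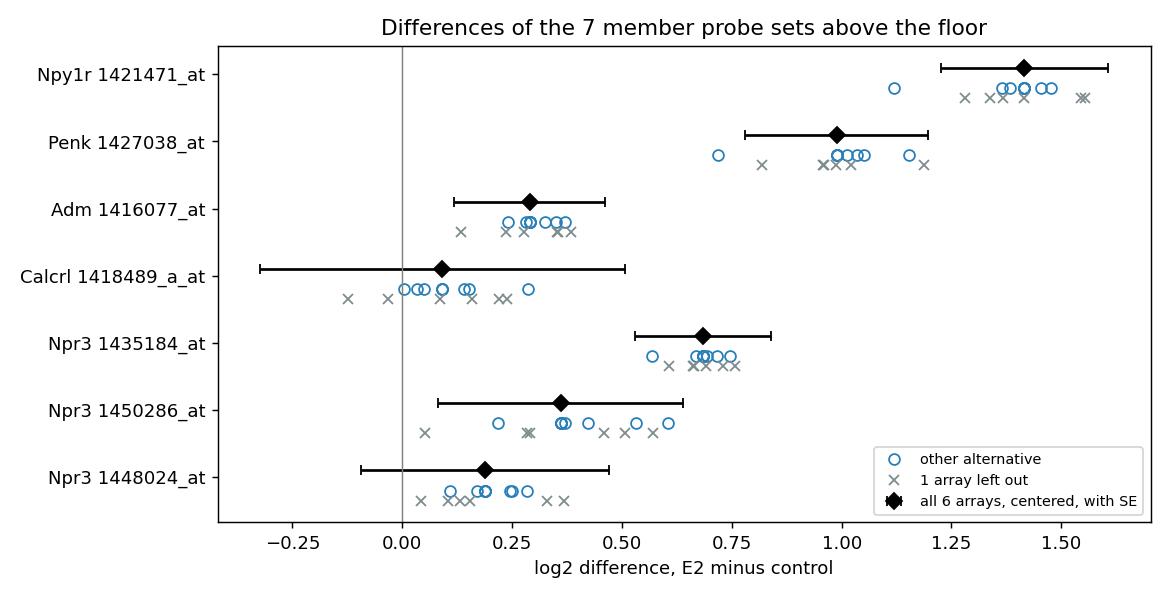
Log2 difference, E2 minus control, of the 7 member probe sets tested, with diamonds and SE bars for the fit to all 6 arrays, circles for the other alternative fits and crosses for fits with 1 array left out. Npy1r stays between 1.12 and 1.55, Penk between 0.72 and 1.19 and Npr3 1435184_at between 0.57 and 0.76, whereas Calcrl spans 0, from -0.12 to 0.29.

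Adm encodes adrenomedullin, a vasodilator peptide, and Calcrl encodes the receptor that binds it when paired with a RAMP protein. Adm, on 1416077_at, gave 81.3, 90.6 and 95.8 units in E2-treated cells, against 58.6, 79.5 and 82.9 units in control cells. The 2 groups overlapped because control replicate 3 exceeded E2 replicate 1. The log2 difference was 0.29 (SE 0.17), with means of 89.2 ± 7.31 units with E2 and 73.7 ± 13.1 units in control (SD, n = 3 each). Without control replicate 1, the lowest array, it was 0.13, and over the other fits with 1 array left out it reached 0.38.

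Calcrl was close to the floor. Its probe set 1418489_a_at gave 12.0, 9.98 and 14.1 units with E2 and 8.30, 13.7 and 12.3 units in control, a log2 difference of 0.09 (SE 0.41). The groups overlapped. The second probe set, 1425814_a_at, was not tested and gave 11.9, 1.30 and 11.0 units with E2 and 7.87, 1.11 and 22.4 units in control. Replicate 2 of each group was near 1 unit there, and control replicate 3 was the highest array. No difference is given for this probe set.

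Of the RAMP proteins that decide which ligand Calcrl binds, Ramp1, which makes the receptor for calcitonin gene-related peptide, averaged 17.4 ± 6.39 units with E2 and 18.6 ± 5.78 units in control (SD, n = 3 each). Ramp2, which makes it an adrenomedullin receptor, averaged 11.7 ± 3.59 units with E2 and 11.4 ± 2.06 units in control (SD, n = 3 each), and Ramp3 was under the floor. The groups overlapped for all 3.

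The endothelin members were dim. Edn1 encodes endothelin-1, the vasoconstrictor peptide, and 1451924_a_at gave 1.30, 6.67 and 10.2 units with E2 and 2.80, 5.74 and 6.80 units in control. Ednrb encodes the ETB receptor, and 1426314_at gave 4.30, 19.4 and 7.84 units with E2 and 9.68, 8.84 and 7.42 units in control. E2 replicate 2, one of the arrays with high 18S signal, was its highest value, and the groups overlapped. The other Ednrb probe set, 1423594_a_at, gave 2.91, 0.512 and 0.395 units with E2 and 6.90, 0.727 and 0.657 units in control. By their deposited means these 3 probe sets were under 10 units in both groups, so they were left out of the test. The alternative fit without a filter included them, but its differences for them are not given. Signal this low limits what can be said of a change.

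Ece1, the endothelin-converting enzyme that makes the active peptide, gave 37.6, 36.9 and 43.6 units with E2 and 80.5, 64.1 and 33.2 units in control. Its control arrays spread more widely than its E2 arrays, the groups overlapped, and it did not pass (log2 difference -0.50, SE 0.27, adjusted p = 0.687 from limma). On the angiotensin branch, Ace, the angiotensin-converting enzyme, gave 15.4, 13.0 and 12.5 units with E2 and 10.7, 8.89 and 2.32 units in control. Its groups did not overlap, but its signal lay close to the floor and it did not pass (adjusted p = 0.682 from limma). Agtr2, the AT2 receptor, averaged 10.2 ± 3.12 units with E2 and 10.2 ± 8.06 units in control (SD, n = 3 each). Agt, which encodes angiotensinogen, was under the floor. Npy, Pyy, the opioid receptors, the RAMP genes, Mme, Ece1, Ace and these others were named for their part in the members' pathways after their values had been seen.

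**Figure D3:**
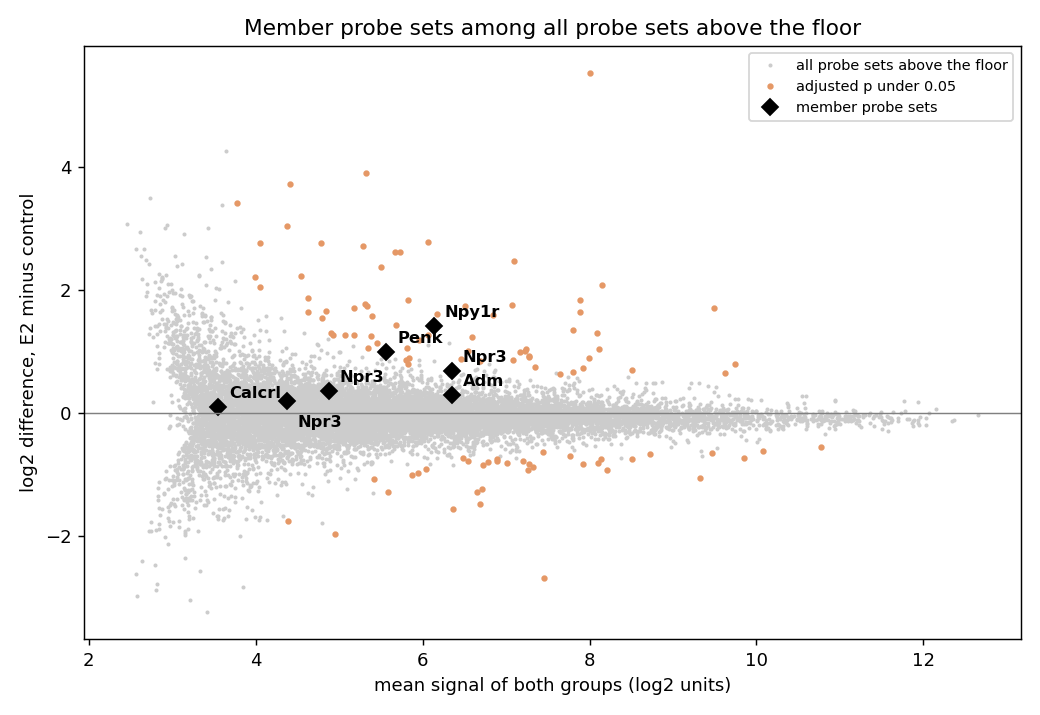
Log2 difference, E2 minus control, against the mean signal of both groups (log2 units) for the 14223 probe sets tested, with those at an adjusted p under 0.05 in orange and the 7 member probe sets as diamonds. Npy1r and Penk lie among the higher orange points at middle signal, and Calcrl lies in the wide scatter of dim probe sets.

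The wider pathway was followed in 111 other genes, of which 102 had a listed probe set and 36 were above the floor, each given by its brightest probe set. None of the 36 was called by limma at an adjusted p under 0.05, where 47 of all 8257 genes tested were called higher and 28 lower. Without adjustment, at p under 0.05, 0 of the 36 were higher and 1 was lower, Cpe, beside 298 higher and 391 lower of the 8257. Of the 36, 22 (61.1%) had a positive difference, against 43.9% of all genes tested, and their median log2 difference was 0.12, against -0.03 over all genes. Some dim genes entered the fit by the mean of 1 group alone, so the filter favored their direction. Among them were Tac1, Ace and Avpr1a by their E2 mean, and Pyy and Mme by their control mean. Nothing is therefore read from the share of positive differences or the medians, here or in the separate lists.

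Of 35 peptide ligands, 31 were listed and 8 were above the floor, with 5 positive differences and a median of 0.29. Tac1, the precursor of substance P, gave 17.7, 3.57 and 12.6 units with E2 and 3.40, 6.36 and 1.98 units in control. E2 replicate 2 lay within the control range, and the difference of 1.41 (SE 0.89) did not pass (adjusted p = 0.746 from limma). Cck, cholecystokinin, averaged 18.2 ± 5.55 units with E2 and 22.0 ± 1.87 units in control (SD, n = 3 each), with an adjusted p of 0.853 from limma. Nppc, described above, had an adjusted p of 0.828 from limma.

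Of 43 receptors, 42 were listed and only 9 were above the floor, with 5 positive differences and a median of 0.06. Atp6ap2, the (pro)renin receptor, gave 614, 783 and 511 units with E2 and 767, 644 and 855 units in control. Its groups overlapped and it did not pass (log2 difference -0.26, SE 0.15, adjusted p = 0.719 from limma). Avpr1a, a vasopressin receptor of smooth muscle, averaged 12.5 ± 5.65 units with E2 and 7.55 ± 3.33 units in control (SD, n = 3 each), with overlapping groups and an adjusted p of 0.806 from limma.

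Of 33 receptor partners and peptide-processing enzymes, 29 were listed and 19 were above the floor, with 12 positive differences and a median of 0.12. Cpe, carboxypeptidase E, which trims peptide precursors, gave 145, 184 and 156 units with E2 and 175, 221 and 260 units in control. The groups overlapped, and its difference of -0.43 (SE 0.16) was not past the adjusted threshold (adjusted p = 0.461 from limma). Nln, neurolysin, which degrades neurotensin and related peptides, averaged 30.4 ± 3.39 units with E2 and 42.3 ± 8.97 units in control (SD, n = 3 each; adjusted p = 0.632 from limma). Enpep, aminopeptidase A, which cleaves angiotensin II, gave 20.1, 18.2 and 24.0 units with E2 and 17.1, 14.3 and 8.47 units in control. Its groups did not overlap, and its difference of 0.69 (SE 0.34) had an adjusted p of 0.653 from limma.

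**Figure D4:**
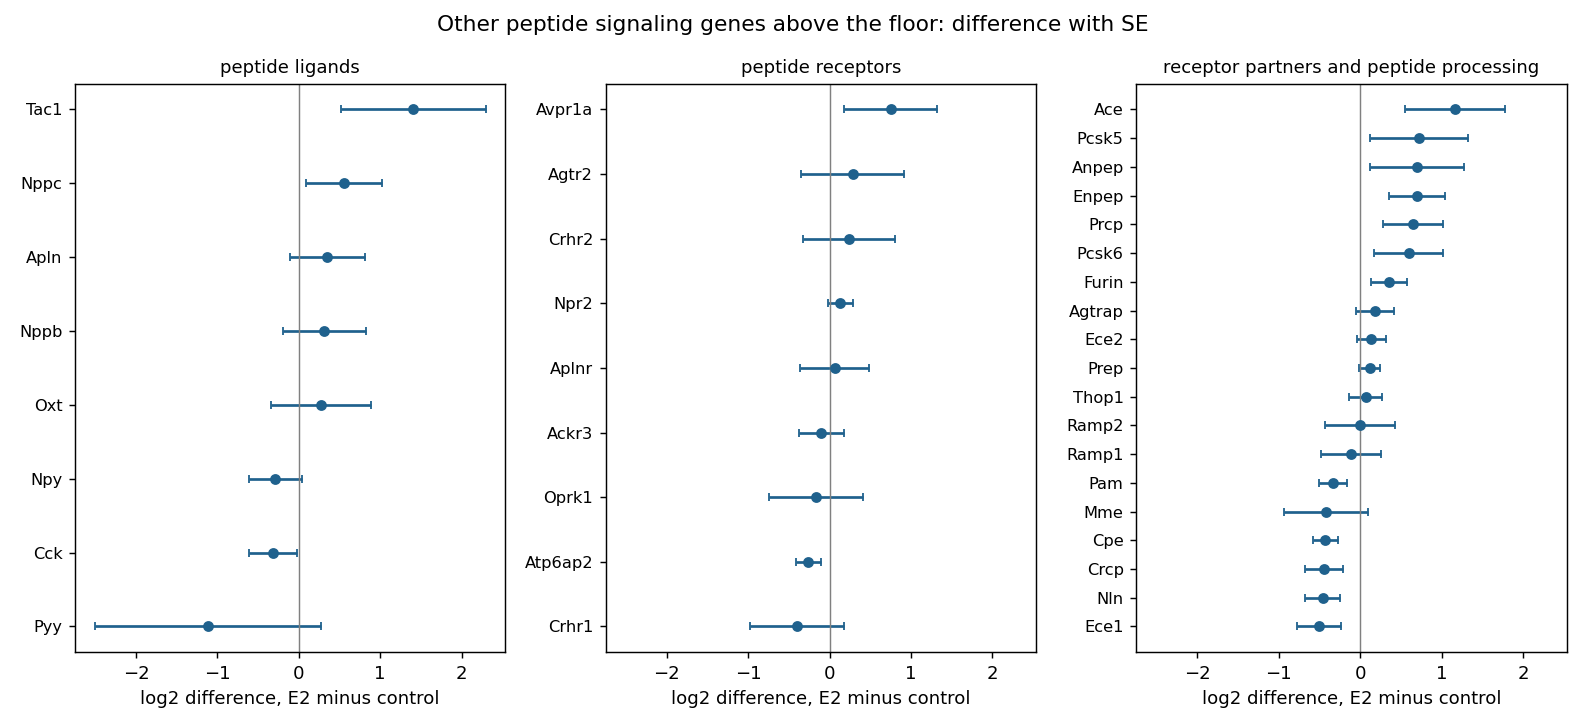
Log2 difference, E2 minus control, with SE, of the 36 other peptide signaling genes above the floor, in panels for 8 ligands, 9 receptors and 19 receptor partners and processing enzymes. None passed the adjusted threshold, and the bars are wide where the signal lies near the floor, as for Tac1, Pyy and Ace.

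The pattern of Npy1r and Penk over the arrays was set against other genes by Pearson's r of centered log2 values. These were the genes of a single symbol above the floor, each given by 1 probe set. The 6 arrays share the split into E2 and control, so r rests in part on that split, and it is given as a description. Closest to Npy1r were Aspm (r = 0.991), Sfrp4 (0.990), Efnb2 (0.987), Ak4 (0.983) and Lpl (0.981). Sfrp4, a secreted antagonist of Wnt signaling, averaged 203 units with E2 and 98.3 units in control, and Lpl, lipoprotein lipase, averaged 232 units with E2 and 41.8 units in control. Closest to Penk were Cryab (0.996), Slc12a1 (0.988), Lrrc14 (0.982), Wrnip1 (0.981) and Lipg (0.979). Slc12a1 and Lipg averaged 4.42 and 8.54 units in control and entered the fit by their E2 mean alone. Cryab, a small heat shock protein, averaged 360 units with E2 and 266 units in control. Lrrc14 averaged 40.7 units with E2 and 37.0 units in control, so a high r did not need a large difference.

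Markers of cell types were read on the same arrays, and in bulk RNA fewer cells of a type and less RNA per cell cannot be told apart. All 10 listed mesenchyme markers were above the floor, and the summed signal of these 10 was 14260 to 14996 units with E2 and 14791 to 16697 units in control. All 12 endothelial markers together summed to 90.0 to 107 units with E2 and 94.3 to 108 units in control. Of them 3 were above the floor, and the defining markers Pecam1 (0.938 units with E2 and 1.08 units in control) and Cdh5 (7.64 units with E2 and 4.26 units in control) were below it. Smooth muscle markers, all 10 above the floor, summed to 7386 to 8392 units with E2 and 7066 to 8778 units in control. The 9 listed neural markers, 2 of them above the floor, together summed to 330 to 350 units with E2 and 279 to 358 units in control. Most of that neural sum was 1 gene, Ncam1, at 275, 295 and 309 units with E2 and 234, 247 and 292 units in control. All 10 epithelial markers together summed to 141 to 150 units with E2 and 58.2 to 99.9 units in control, with no overlap. Of them 4 were above the floor, the keratins Krt18, Krt8, Krt19 and Krt14, and Krt18 passed the test (log2 difference 0.87, adjusted p = 0.0416 from limma). The largest part of each sum was Krt18, at 83.5, 60.4 and 72.1 units with E2 and 42.3, 38.2 and 36.8 units in control. The separation of the sums therefore rests largely on that gene and does not describe the list as a whole. Krt8, Krt19 and Krt14 averaged under 10 units in control and entered the fit by their E2 mean alone, so the filter favored their direction. Of the 6 below the floor, Krt7 averaged 1.39 units with E2 and 6.95 units in control, with every E2 array below control, and Epcam, Cdh1, Krt5, Cldn4 and Cldn7 overlapped between the groups. All 10 leukocyte markers together summed to 244 to 279 units with E2 and 261 to 450 units in control, and the 9 above the floor all had negative differences, with 0 called by limma and 3 lower at an unadjusted p under 0.05. The part of either list in the values of Npy1r, Penk and Npr3 was not tested.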

How the data were processed

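RNA from 3 E2 and 3 control samples was hybridized to Affymetrix mouse arrays. The authors made the deposited intensity values, linear and 1 for each probe set on each array, with the manufacturer's GeneChip Operating Software and Expression Console. How the signal was computed and scaled is not given in the sources used here. Of 22690 probe sets, 64 controls were left out. Each array was centered on its median, and 14223 probe sets with a deposited mean of at least 10 units in either group were fitted on log2 values. The fit was made in R 4.3.3 with limma 3.58.1 (lmFit, eBayes with trend, Benjamini-Hochberg, threshold 0.05). It was also run on simulated data with 1 SD common to all probe sets, which cannot check the trend. Symbols came from the platform annotation, with 20393 probe sets of 1 symbol, 691 of several and 1555 not listed. The arrays come with no stated genome build. Promoters came from RefSeq by symbol, and 7 of the 9 members matched.

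The members and gene lists were chosen with earlier results of these data known. Named were all members, the 3 pathway genes per list with the smallest p, and the 5 genes most like Npy1r and Penk, the members of smallest p. Alternatives were log2(value + 16), a floor of 10 units, quantile normalization, the deposited values without centering, a filter at 100 units or none, no trend, array weights, a replicate block, each array left out, and both arrays of high 18S signal left out.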

Additional observations from a re-analysis of the deposited data

How the results depend on the processing

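The differences of Npy1r, Penk, Adm and all 3 Npr3 probe sets were positive in each alternative fit that gave a value, and that of Calcrl was positive in 13 of 15. With log2(value + 16), which lowers differences by construction, Npy1r was at 1.12 and Penk at 0.72. Of the 2 members called, Penk and Npy1r, 1 was called with a floor of 10 units, the deposited values, no filter and the replicate block, where Penk was lost, and with a filter at 100 units, which left Penk untested. Without the trend 0 were called, and with array weights 3. With 1 array left out, 1 to 2 members were called, and 2 with both arrays of high 18S signal left out. The cause of these shifts was not tested unless stated.

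Of all probe sets, 70 were called higher and 36 lower, and the values as deposited gave 39 and 7, without the trend 15 and 1, and array weights 112 and 70. A filter at 100 units, which tested fewer probe sets, gave 41 higher. At 1.5-fold and an unadjusted p, 293 were higher and 267 lower. These were 145 lower with the values as deposited, 119 and 79 with log2(value + 16), 495 and 409 with no filter, and 48 and 46 with a filter at 100 units. With 1 array left out, 37 to 75 were called higher and 11 to 31 lower, and 261 to 344 and 239 to 435 were past 1.5-fold. The labels number the replicates in both groups, but same-numbered samples deviated together by correlations of only 0.0078, -0.053 and -0.0583, and not every sample correlated best with its own number. The replicate block followed the numbers in the labels. It gave 61 higher and 27 lower calls and changed no member's call but that of Penk. No other pairing was fitted, so the block does not cover a pairing across numbers. None of the pathway lists had a gene called in any of the 16 alternatives. Dim members near 10 units carry the widest errors, and signal under it limits what can be said of Edn1 and Ednrb.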
